A study of Homo sapiens with 18 samples.

Results

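*OLIG1* and *OLIG2* lie side by side on chromosome band 21q22, upstream of a row of genes that encode receptor chains for interferons and other cytokines. Expression of 7 genes of this region, *OLIG2*, *OLIG1*, *IFNAR2*, *IL10RB*, *IFNAR1*, *IFNGR2* and *TMEM50B*, was followed across 6 groups of HAP1 cells that differed in the cohesin regulators WAPL and SCC4. They are 7 of the 20329 genes counted in the study. They were chosen by name, with results of these 18 samples already known, so their own differences between groups are given as a description, with their SE and no test. How many of them were past the threshold (edgeR adjusted p under 0.05) is given once, beside the share of all genes, and nothing is read from it. Tests are given for the other genes of the region and for the pathways to which the 7 genes belong. The pathway lists were also chosen with earlier results of these data known. Their counts past the threshold are therefore not independent of these data.

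The OLIG proteins are transcription factors of the basic helix-loop-helix family that direct the formation of oligodendrocytes and motor neurons. IFNAR1 and IFNAR2 together form the receptor for type I interferons, IFNGR2 is the signalling chain of the interferon gamma receptor, and IL10RB is a chain shared by the receptors of the interleukin-10 family and of the lambda interferons. WAPL removes the ring-shaped cohesin complex from DNA. SCC4, the product of the gene *MAU2*, works with SCC2 in loading cohesin onto DNA. Cohesin forms the chromatin loops within which genes and their regulatory elements meet.

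HAP1 is a near-haploid human cell line derived from a chronic myeloid leukaemia line, and its parental cells carry a mutated p53 that all 6 groups share. Each group had 3 samples. Set A consisted of unedited control cells (control A), *ΔWAPL* clone 3.3, *ΔSCC4* cells, and *ΔWAPL*/*ΔSCC4* cells made by knocking out SCC4 in clone 3.3. Set B consisted of unedited control cells (control B) and *ΔWAPL* clone 1.14. The knockouts carry an inserted Blasticidin (*WAPL*) or Puromycin (*SCC4*) cassette, and each clone was sampled as 3 replicates. Nothing says that the replicates were separate cultures. The spread between them is therefore that of repeated samples of a clone, which may be technical, and an effect of a knockout cannot be told apart from an effect of its clone. *ΔSCC4*, *ΔWAPL*/*ΔSCC4* and clone 3.3 were all compared with the same control A samples.

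The guides used to open the target genes are shown because they define the genotypes. Capitals mark the 19 bases that match the genome, and lower case marks the cloning overhang with an added g.
*WAPL* guide oligo: caccgCGTTCCATAGTATCCTGTA
*SCC4* guide oligo: caccgTACGGGCCTCGATGCGCTG
In GRCh37 the first lies at chr10:88259864-88259882 on the plus strand, inside *WAPL*, and the second at chr19:19431849-19431867 on the minus strand, inside *MAU2*. Both are followed by an NGG motif, and each had 1 match on its own chromosome.

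Between 10007646 and 20711127 reads per sample were counted on genes. Levels are given as CPM, which here means counts scaled to library size by the TMM method. *MAU2* was at 65.6 ± 6.12 CPM in control A (SD, n = 3), against 0.699 ± 0.243 in *ΔSCC4* and 0.936 ± 0.0996 in *ΔWAPL*/*ΔSCC4*. *WAPL* RNA was lower but still present, at 99.4 ± 21.6 CPM in control A, 43.7 ± 5.73 in clone 3.3 and 45.6 ± 4.0 in *ΔWAPL*/*ΔSCC4*, and at 120.4 ± 14.5 in control B against 41.4 ± 2.89 in clone 1.14. RNA from a disrupted gene can still be counted, so this level is no measure of the protein. *BCR* and *ABL1*, whose fusion marks the leukaemia line, were read in all samples, though *ABL1* moved with genotype, from 16.4 ± 1.66 CPM in control A to 7.82 ± 0.327 in clone 3.3 and 39.7 ± 2.83 in *ΔSCC4*. Its part in the results below was not tested. The haematopoietic markers *PTPRC*, *SPI1*, *CD33* and *GATA1* summed to at most 0.482 CPM in any sample, and all 4 stayed under 1 CPM.

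The 7 genes span 454.0 kb between the first and the last start site. *OLIG2* (ENSG00000205927) lies at chr21:34398243-34401504 and *OLIG1* (ENSG00000184221) at chr21:34442447-34444719, with 40942 bases between them. After a gap of 132867 bases follow *IFNAR2* (ENSG00000159110) at chr21:34577587-34637980, *IL10RB* (ENSG00000243646) at chr21:34638672-34683725, *IFNAR1* (ENSG00000142166) at chr21:34696692-34732170 and *IFNGR2* (ENSG00000159128) at chr21:34775719-34851655. These 6 genes are on the plus strand. *TMEM50B* (ENSG00000142188), which encodes a small membrane protein, lies at chr21:34804792-34852281 on the minus strand and overlaps *IFNGR2* by 46864 bases. The libraries were strand-specific, but the strand setting of the counting is not given in the sources used here, so the split of reads between these 2 genes is uncertain. A gene model that joins *IFNAR2* and *IL10RB* was listed at 0 in every sample.

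*OLIG1* was lower in every knockout genotype. In control A the 3 samples had 8.26, 7.24 and 6.44 CPM, and in control B 5.45, 5.31 and 4.78. Clone 3.3 had 0.849, 0.778 and 0.796 CPM, clone 1.14 had 0.478, 0.476 and 0.303, *ΔSCC4* cells had 0.518, 0.202 and 0.895, and *ΔWAPL*/*ΔSCC4* cells had 1.31, 0.923 and 1.19. Every knockout sample was thus below every control sample, with the lowest control, at 4.78 CPM, well above the highest knockout sample, at 1.31. The counts behind these levels were 79 to 127 reads in the controls and 2 to 23 in the knockouts, which makes the knockout levels imprecise.

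The log2 fold change of *OLIG1* against the controls of its own set was -3.18 ± 0.229 (SE) in clone 3.3 and -3.60 ± 0.185 in clone 1.14. Over both clones it was -3.34 ± 0.146, a 10.2-fold lower level. In *ΔSCC4* cells it was -3.66 ± 0.316, 12.6-fold lower, and in *ΔWAPL*/*ΔSCC4* cells -2.67 ± 0.197, 6.37-fold lower. The effect of WAPL loss on the log2 scale differed between the clones by 0.44 ± 0.306.

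*OLIG2* was also lower in every knockout genotype, by less. Control A had 23.0, 18.8 and 17.1 CPM and control B had 13.97, 15.9 and 15.2. Clone 3.3 had 8.09, 9.12 and 9.75 CPM, clone 1.14 had 6.96, 5.96 and 8.11, *ΔSCC4* cells had 9.46, 5.45 and 6.95, and *ΔWAPL*/*ΔSCC4* cells had 13.5, 12.1 and 10.3. All knockout samples were again below all control samples, although the highest *ΔWAPL*/*ΔSCC4* sample came close to the lowest sample of control B. The log2 fold change of *OLIG2* was -1.14 ± 0.177 in clone 3.3, -1.11 ± 0.122 in clone 1.14 and -1.12 ± 0.101 over both clones, a 2.17-fold lower level. It was -1.41 ± 0.215 in *ΔSCC4* cells and -0.72 ± 0.163 in *ΔWAPL*/*ΔSCC4* cells, 2.66-fold and 1.64-fold lower. In *ΔWAPL*/*ΔSCC4* cells the value lay between -0.81 and -0.56 over all alternatives run.

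**Figure D1:**
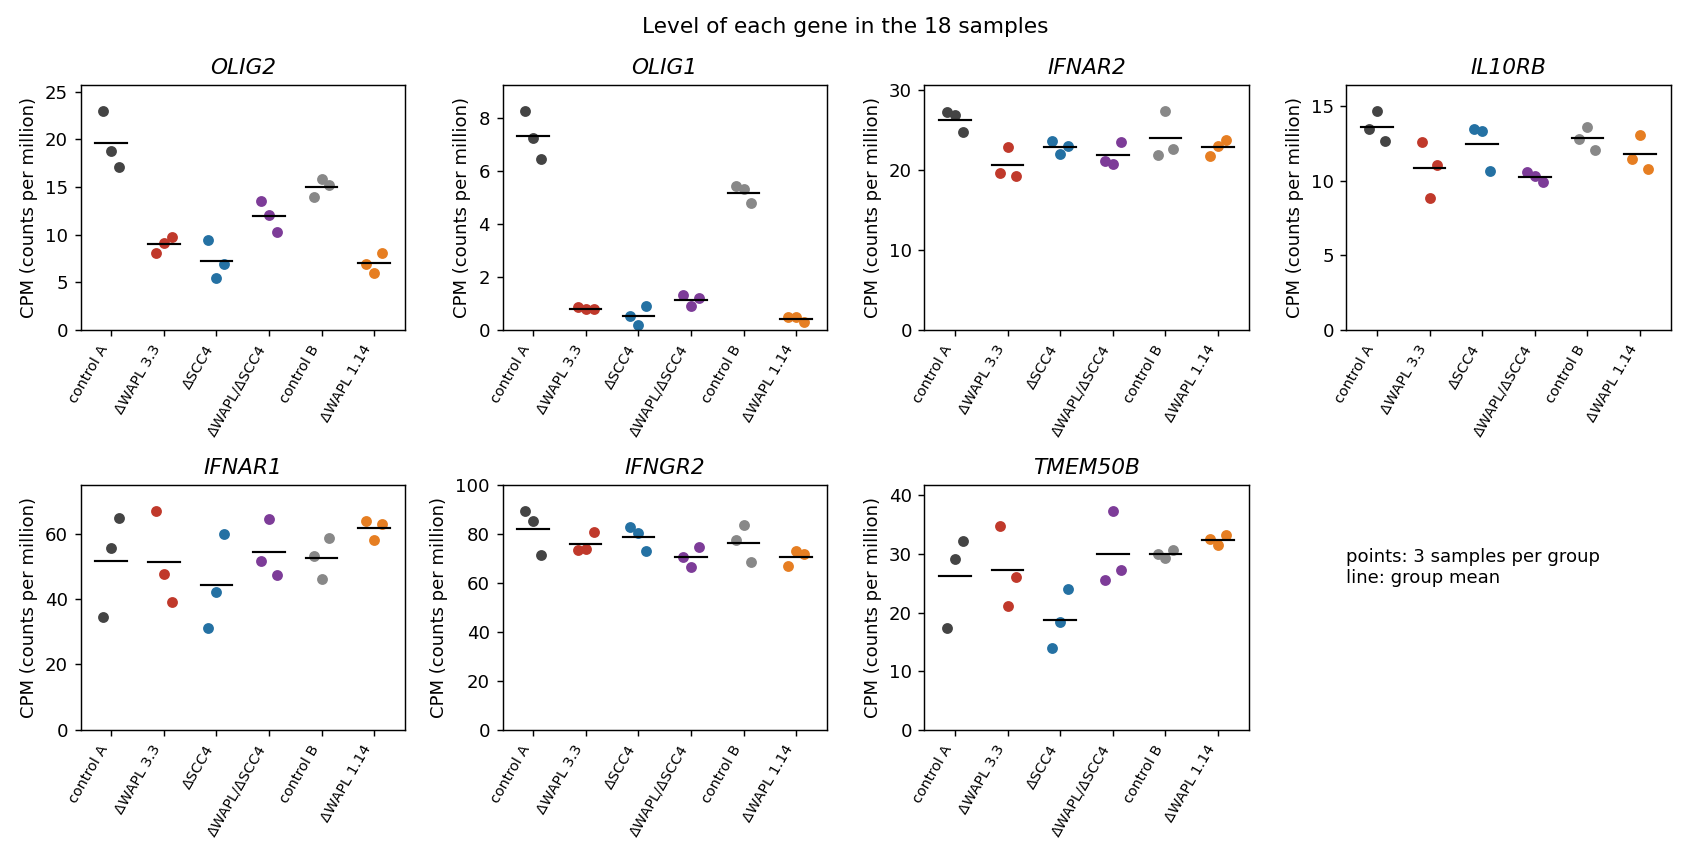
Level of the 7 genes in CPM (vertical axis, from 0) in the 18 samples (points, 3 per group), with the group mean as a line. For *OLIG1* and *OLIG2* all knockout samples sit below all control samples, while the other 5 genes overlap between most groups.

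Because both genes fell, their ratio was taken within each sample, where it does not depend on the normalization. *OLIG1* reads were 37.5 ± 1.35% of *OLIG2* reads in control A (range 36.0 to 38.6) and 34.7 ± 3.91% in control B (31.5 to 39.0). They were 9.06 ± 1.25% in clone 3.3, 6.20 ± 2.21% in clone 1.14, 7.35 ± 4.86% in *ΔSCC4* and 9.64 ± 1.97% in *ΔWAPL*/*ΔSCC4* cells. The highest of the knockout samples, a *ΔSCC4* sample at 12.9% from 13 and 101 reads, was below the lowest control. The other *ΔSCC4* samples had 5.48% and 3.70%, so the *ΔSCC4* ratio was the least certain.

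**Figure D2:**
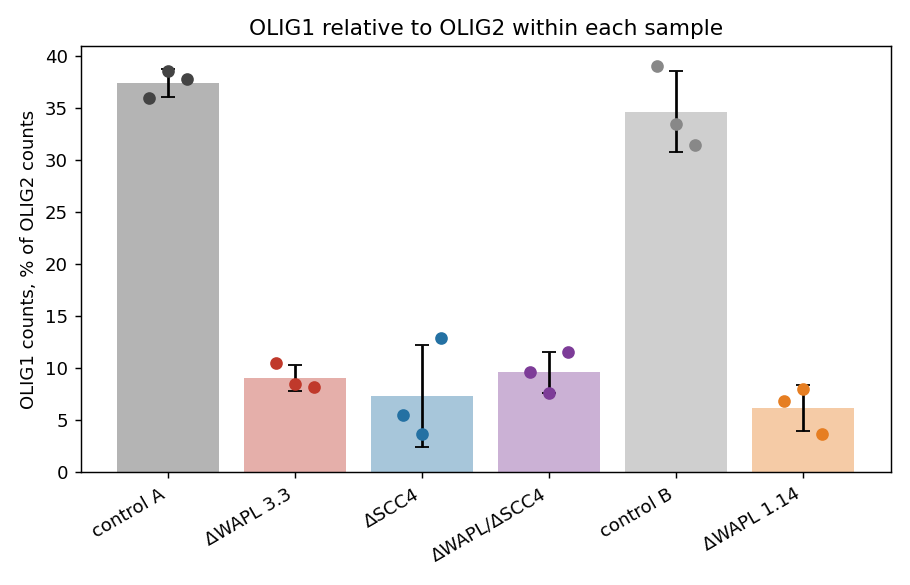
*OLIG1* counts as a percentage of *OLIG2* counts (vertical axis, from 0) in each sample (points), with the group mean as a bar and the SD over 3 samples as the error bar. The 6 controls sit between 31.5 and 39.0%, and the knockout samples between 3.70 and 12.9%.

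The 6 groups fell in the same order for both genes, from control A and control B through *ΔWAPL*/*ΔSCC4*, clone 3.3 and *ΔSCC4* to clone 1.14. Down to clone 3.3, neighbours in this order did not overlap. Clone 3.3 overlapped with *ΔSCC4*, and *ΔSCC4* with clone 1.14. Knocking out SCC4 in clone 3.3 did not lower the OLIG genes further. In *ΔWAPL*/*ΔSCC4* cells *OLIG1* had a log2 fold change of 0.49 ± 0.281 against clone 3.3 and of 0.98 ± 0.384 against *ΔSCC4*, and *OLIG2* one of 0.41 ± 0.149 and of 0.68 ± 0.189. All 3 *ΔWAPL*/*ΔSCC4* samples were above all samples of either single knockout of set A for both genes. For *OLIG1* this separation was narrow and rests on few reads. Its lowest *ΔWAPL*/*ΔSCC4* sample had 0.923 CPM from 15 reads. The highest *ΔSCC4* sample had 0.895 from 13, and the highest clone 3.3 sample 0.849 from 17. Over the alternatives run the difference against *ΔSCC4* lay between 0.69 and 1.51 for *OLIG1* and between 0.52 and 0.92 for *OLIG2*. Against clone 3.3 it lay between 0.38 and 0.63 for *OLIG1* and between 0.31 and 0.51 for *OLIG2*.

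The controls themselves differed. All 3 samples of control B were below those of control A for both genes, by a log2 value of -0.51 ± 0.156 for *OLIG1* and of -0.39 ± 0.153 for *OLIG2*. The labels do not say what separates the sets, so each clone was read against the controls of its own set.

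The receptor genes differed less from their controls. *IFNAR2*, the next gene downstream, averaged 26.4 ± 1.34 CPM in control A, 20.7 ± 2.01 in clone 3.3, 22.9 ± 0.854 in *ΔSCC4*, 21.9 ± 1.52 in *ΔWAPL*/*ΔSCC4*, 24.0 ± 2.98 in control B and 22.9 ± 1.07 in clone 1.14. All samples of the 3 knockout genotypes of set A were below all samples of control A, which ranged from 24.8 to 27.3 CPM, while clone 1.14 and control B overlapped. Its log2 fold change was -0.37 ± 0.151 in clone 3.3, -0.20 ± 0.133 in *ΔSCC4*, -0.27 ± 0.121 in *ΔWAPL*/*ΔSCC4* and -0.08 ± 0.104 in clone 1.14.

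*IL10RB* starts 691 bases after the end of *IFNAR2*. It averaged 13.6 ± 1.02 CPM in control A, 10.8 ± 1.91 in clone 3.3, 12.5 ± 1.58 in *ΔSCC4* and 10.3 ± 0.333 in *ΔWAPL*/*ΔSCC4*, and 12.8 ± 0.771 in control B against 11.8 ± 1.19 in clone 1.14. The samples of clone 3.3 and of *ΔWAPL*/*ΔSCC4* were below those of control A, whereas *ΔSCC4* and clone 1.14 overlapped with their controls. The difference was largest in *ΔWAPL*/*ΔSCC4*, at -0.41 ± 0.125 on the log2 scale.

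*IFNGR2* had the highest level of the 7 genes, 82.2 ± 9.36 CPM in control A, 76.1 ± 4.14 in clone 3.3, 78.8 ± 5.12 in *ΔSCC4*, 70.7 ± 4.20 in *ΔWAPL*/*ΔSCC4*, 76.6 ± 7.54 in control B and 70.7 ± 3.35 in clone 1.14. Every knockout overlapped with its controls, and the log2 fold changes were between -0.22 and -0.06. Per kilobase of the canonical transcript *IFNGR2* was at 48.4 CPM in control A, against 3.22 for *OLIG1*, 6.47 for *IFNAR2*, 7.0 for *IL10RB*, 7.91 for *OLIG2*, 8.51 for *IFNAR1* and 11.2 for *TMEM50B*.

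*IFNAR1* and *TMEM50B* varied widely between the replicates of set A. In control A *IFNAR1* had 34.4, 55.8 and 64.9 CPM and *TMEM50B* 17.4, 29.2 and 32.1. In clone 3.3 they had 67.1, 47.9 and 39.3, and 34.7, 21.1 and 26.1. In *ΔSCC4* cells they had 31.1, 42.3 and 59.97, and 13.9, 18.4 and 24.0. Samples high for one gene were thus mostly high for the other, and every one of these knockout ranges overlapped with that of control A. The values in *ΔWAPL*/*ΔSCC4* cells were 51.8, 64.5 and 47.5 for *IFNAR1* and 25.5, 37.3 and 27.2 for *TMEM50B*, and clone 1.14 averaged 61.8 ± 3.10 against 52.7 ± 6.37 in control B for *IFNAR1* and 32.4 ± 0.896 against 29.97 ± 0.686 for *TMEM50B*. On the log2 scale these were differences of 0.22 ± 0.0927 and 0.10 ± 0.0603. All samples of clone 1.14 were above all samples of control B for *TMEM50B*, and for *IFNAR1* they overlapped.

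Against control A the log2 fold change of *TMEM50B* in *ΔSCC4* cells was -0.49 ± 0.251 and that of *IFNAR1* was -0.22 ± 0.265. Samples of *ΔSCC4* and control A with replicate numbers 1 and 3 deviated together across genes (r = 0.68 and 0.62), those with number 2 hardly (r = 0.12). Blocking on the replicate number gave -0.47 ± 0.0882 and -0.22 ± 0.0737. Over the alternatives run the value of *TMEM50B* lay between -0.71 and -0.31 and that of *IFNAR1* between -0.50 and -0.02. In *ΔWAPL*/*ΔSCC4* against *ΔSCC4* cells *TMEM50B* was higher by 0.67 ± 0.188, with no overlap and a range of 0.48 to 0.89 over the alternatives.

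All 7 genes passed the filter on low counts in every comparison. *OLIG1* had 2 to 13 reads in *ΔSCC4* and 5 to 9 in clone 1.14, so there it passed through the other groups. With at least 10 counts in every sample it dropped out of those comparisons. The genes were chosen with results of these samples known, on contrasts that are not stated, so nothing is read from the numbers called. *OLIG1* and *OLIG2* were the 2 of 7 past the threshold (edgeR adjusted p under 0.05) over both clones, where 17.7% of all genes tested were called, in clone 3.3 (8.07% of all genes), in clone 1.14 (20.1%), in *ΔSCC4* (9.49%) and in *ΔWAPL*/*ΔSCC4* (7.95%). In *ΔWAPL*/*ΔSCC4* against *ΔSCC4* they were *OLIG2* and *TMEM50B* (27.3% of all genes), and against clone 3.3 (10.6%), between the controls (0.64%) and for the difference between the clones (2.65%) there were 0 of 7. With the replicate block 4 were in *ΔSCC4*, against 46.0% of all genes. One fit over all 18 samples added *IFNAR2* over both clones (21.2% of all genes) and in clone 3.3 (13.5%), and *OLIG1* against *ΔSCC4* (30.8%). Leaving out 1 sample gave 4 of 7 in clone 1.14 without control B replicate 3 (37.9% of all genes). It gave 3 of 7 in *ΔSCC4* without control A replicate 1 (18.3%). In *ΔWAPL*/*ΔSCC4* it gave 1 of 7 without control A replicate 2 (4.99%) or *ΔWAPL*/*ΔSCC4* replicate 1 (4.62%) or 3 (6.06%). Against clone 3.3 it gave 1 of 7 without clone 3.3 replicate 3 (14.2%). Against *ΔSCC4* it gave 0 without *ΔSCC4* replicate 2 (16.3%) and 1 without *ΔWAPL*/*ΔSCC4* replicate 1 (17.7%). It gave 3 there without *ΔWAPL*/*ΔSCC4* replicate 2 (22.5%) and 4 without *ΔSCC4* replicate 3 (39.5%).

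Of the 7 genes, 2 had every knockout sample below every control of its set over both clones, against 6.95% of all genes tested, 3 in *ΔSCC4* (11.7%) and 4 in *ΔWAPL*/*ΔSCC4* cells (10.6%). Between the controls, 2 of 7 had every sample of control B below every sample of control A (9.06%). In *ΔWAPL*/*ΔSCC4* cells 2 of 7 had every sample above those of clone 3.3 (13.3%) and 3 of 7 above those of *ΔSCC4* (19.8%).

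Whether neighbours moved together was also looked at over the 18 samples, as Pearson's r of log2 CPM. This r is a description only, since all 12 knockout samples lay below all 6 controls for either OLIG gene. For *OLIG2* the gap was small, with the highest knockout sample at a log2 CPM of 3.77 and the lowest control at 3.82. *OLIG1* and *OLIG2* had an r of 0.92 (0.92 in set A, 0.94 in set B). In a ranking of 11563 genes by r with *OLIG1*, *OLIG2* came 8th, and *OLIG1* came 3rd by r with *OLIG2*. The r of *OLIG1* was 0.56 with *IFNAR2*, 0.40 with *IL10RB*, 0.34 with *IFNGR2*, 0.12 with *TMEM50B* and -0.02 with *IFNAR1*. *GART*, a purine synthesis gene further downstream, was at 0.65, which was above all 5 of these. It was picked as the highest of the other ranked genes within 1000000 bases, so its place follows partly from that choice. Once each group's mean was taken away, the r of *OLIG1* with *OLIG2* was 0.30, a value that 30.2% of genes reached with *OLIG2*. *OLIG1* had only 2 to 23 reads in the knockout samples, so this r is imprecise and does not settle whether the pair varied together within groups. With the group means taken away, *IFNAR1* and *TMEM50B* had an r of 0.90, reached by 9.64% of genes with *IFNAR1*, and *IFNAR1* and *IFNGR2* one of -0.79.

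The 5 genes closest to *OLIG1* in this ranking lay outside the region. They were *ST6GAL1*, a sialyltransferase, at 0.95, *FAM124A* at 0.93, *PLAAT1*, a phospholipase and acyltransferase, at 0.93, *ASPHD1* at 0.92 and *GPC4*, a cell-surface proteoglycan, at 0.92. For *OLIG2* they were *PIM1*, a serine/threonine kinase, at 0.94, *EGLN3*, a prolyl hydroxylase of the hypoxia response, at 0.93, *OLIG1*, *PLAUR*, the urokinase receptor, at 0.91 and *VWA1*, an extracellular matrix protein, at 0.89.

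The region was widened to 1000000 bases on either side, chr21:33398243-35852281, which held 31 other counted genes, of which 17 or 18 passed the filter in each comparison. *EVA1C*, a gene for a membrane protein that binds heparin, was the 1 of 18 neighbours called over both clones, against 17.7% of all genes. Its level was 1.90 ± 0.143 CPM in control A, 1.06 ± 0.0694 in clone 3.3, 0.946 ± 0.178 in *ΔSCC4*, 1.57 ± 0.425 in *ΔWAPL*/*ΔSCC4*, 1.60 ± 0.362 in control B and 0.822 ± 0.0710 in clone 1.14, from 11 to 33 reads. Over both clones it fell by 0.90 ± 0.154 on the log2 scale (edgeR adjusted p = 0.000661), and it passed the threshold in all 19 fits run, with adjusted p from 0.000361 to 0.0105. The median log2 fold change of the neighbours tested was -0.02, against 0.00479 over all genes tested.

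In single genotypes the call of *EVA1C* was fragile. It was -0.86 in clone 3.3 (edgeR adjusted p = 0.0418, from 0.0134 to 0.268 over the alternatives), and was lost without any 1 of the 6 samples. It was -0.97 in clone 1.14 (edgeR adjusted p = 0.0262, from 0.00800 to 0.120), and was lost without control B replicate 2 or without any 1 sample of the clone. It was -1.03 in *ΔSCC4* (edgeR adjusted p = 0.0269, from 0.00485 to 0.137), and was lost without control A replicate 2 or 3 or without any 1 *ΔSCC4* sample. In *ΔWAPL*/*ΔSCC4* against control A 0 neighbours passed in edgeR and 0 in DESeq2, with 1 at an unadjusted p under 0.05. Between the controls these numbers were 0, 0 and 3.

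With the replicate block, 11 of 17 neighbours were called in *ΔSCC4*, against 46.0% of all genes. Of these, 10 fell, among them *MRPS6*, a mitochondrial ribosomal protein gene, by 0.48 ± 0.0574 (edgeR adjusted p = 8.09e-05), *ITSN1*, an endocytic adaptor, by 0.46 ± 0.0580 (adjusted p = 0.000111), *GART* by 0.36 ± 0.0480 (adjusted p = 0.000165) and *EVA1C* (adjusted p = 0.00756). *ATP5PO*, a subunit of ATP synthase, rose by 0.18 ± 0.0530 (adjusted p = 0.0166). Without the block the list's median log2 fold change was -0.27 in *ΔSCC4*, against -0.00474 over all genes tested.

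Comparing *ΔWAPL*/*ΔSCC4* with clone 3.3, *URB1*, a ribosome biogenesis gene, was higher by 0.55 ± 0.111 (edgeR adjusted p = 0.00333, under the threshold in all 13 fits run). Against *ΔSCC4*, 3 neighbours rose. They were *DONSON*, a replication gene, by 0.67 ± 0.131 (edgeR adjusted p = 0.00120), *CFAP298* by 0.49 ± 0.137 (adjusted p = 0.0134) and *MIS18A*, a centromere gene, by 0.62 ± 0.189 (adjusted p = 0.0208). *ATP5PO* was lower by 0.35 ± 0.121 (edgeR adjusted p = 0.0408, from 0.0125 to 0.175), a call that held in 1 of the 6 fits that leave out a sample, the one without *ΔSCC4* replicate 3, and was lost without a filter and with the replicate block. That of *CFAP298* was lost without *ΔSCC4* replicate 2 or *ΔWAPL*/*ΔSCC4* replicate 2, and that of *MIS18A* without *ΔSCC4* replicate 2 and in one fit over all 18 samples. These were 4 of 18 neighbours tested, against 27.3% of all genes. The count of 4 became 1 without *ΔSCC4* replicate 2 (16.3% of all genes), 2 without *ΔWAPL*/*ΔSCC4* replicate 2 (22.5%) and 8 without *ΔSCC4* replicate 3 (39.5%).

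**Figure D3:**
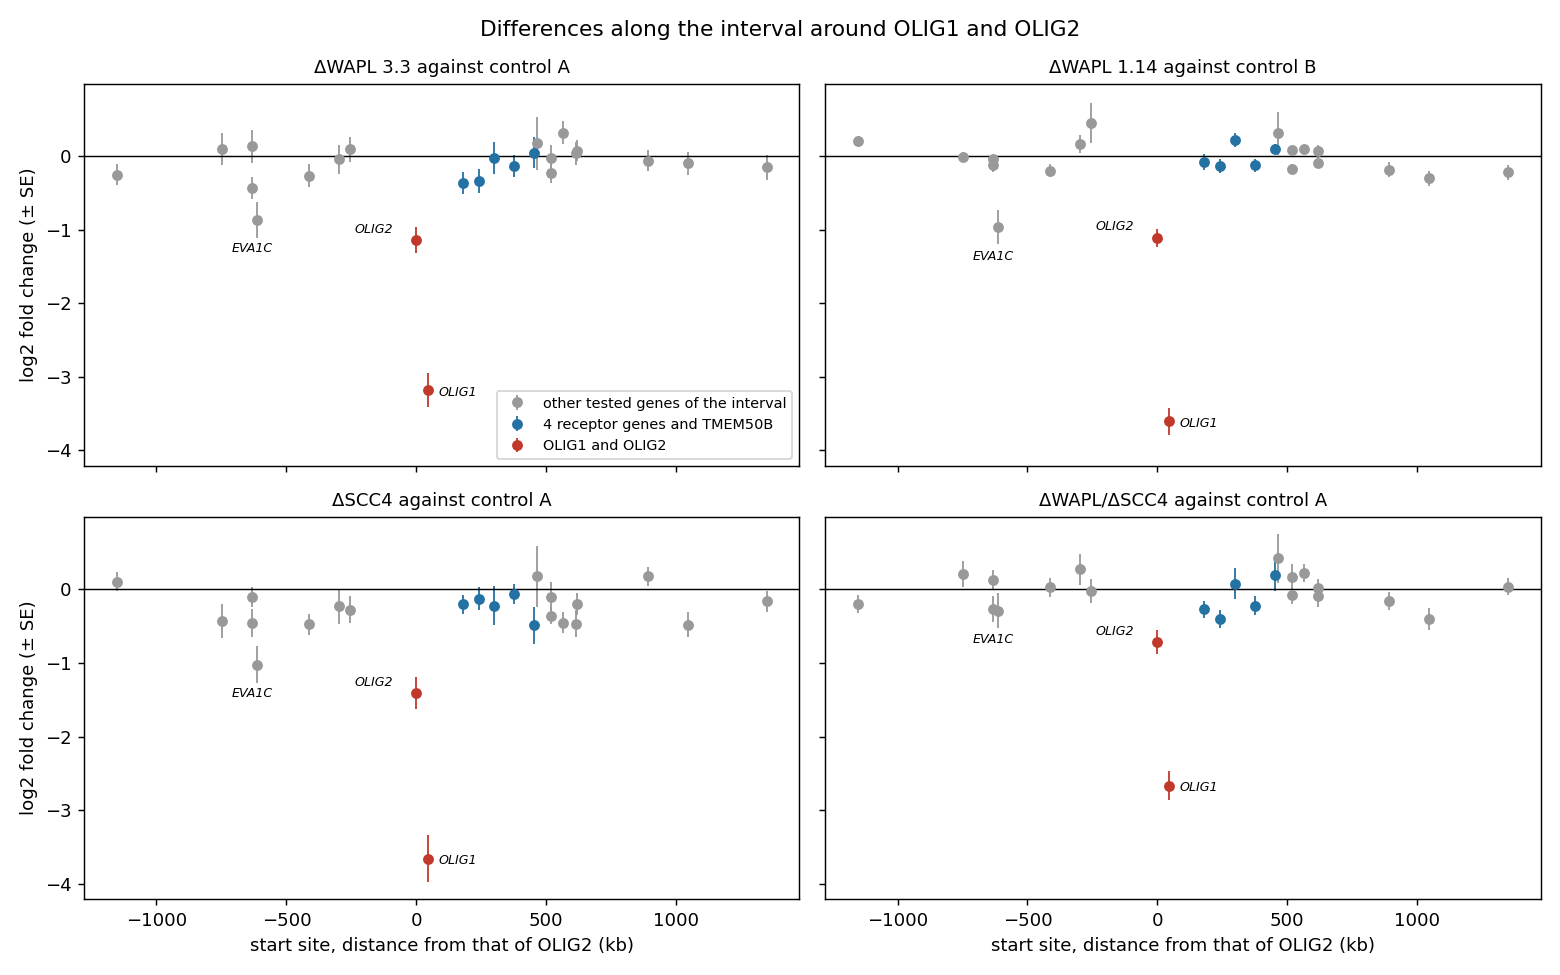
Log2 fold change with its SE (vertical axis) against the distance of each start site from that of *OLIG2* in kb (horizontal axis), for the tested genes of the region in 4 knockouts against the controls of their set. *OLIG1* is the lowest gene in all 4 panels and *OLIG2* lies below 0 in each, most neighbours also lie below 0 in *ΔSCC4*, with a median of -0.27, and *EVA1C* is the lowest of the other genes in clone 3.3, clone 1.14 and *ΔSCC4*.

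Ligands of these receptors were hardly read. Of 12 genes for interferons and for cytokines of the interleukin-10 family, 10 were at 0 in every sample and the 12 together summed to at most 0.246 CPM in a sample, so none could be tested. Of the 7 other receptor chains, *IL20RA*, the partner of IL10RB in the receptor for interleukin 26, rose by 1.74 ± 0.286 in clone 3.3 (edgeR adjusted p = 0.000797), from 0.793 ± 0.226 to 2.67 ± 0.574 CPM, and was at 0.988 ± 0.248 in control B and 1.11 ± 0.0678 in clone 1.14. *IL22RA1*, its partner in the receptor for interleukin 22, was higher by 1.28 ± 0.318 in *ΔWAPL*/*ΔSCC4* than in control A (edgeR adjusted p = 0.0334). That call was lost in DESeq2 and without control A replicate 2 or 3 or *ΔWAPL*/*ΔSCC4* replicate 1.

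Among the 7 kinases and transcription factors that carry the signal, *STAT2*, which acts below the type I interferon receptor, fell over both clones by 0.49 ± 0.0660 (edgeR adjusted p = 7.4e-05). Its level was 48.4 ± 1.95 CPM in control A and 32.6 ± 2.01 in clone 3.3, and 43.6 ± 2.14 in control B and 32.8 ± 1.62 in clone 1.14. *STAT3* fell by 0.28 ± 0.0693 (edgeR adjusted p = 0.0102), and the other 4 of the 6 tested did not pass, against 17.7% of all genes called. In clone 3.3 alone the call of *STAT2* was lost with the replicate block and without control A replicate 2 or clone 3.3 replicate 1 or 2 (edgeR adjusted p from 0.000557 to 0.137). In *ΔSCC4* and in *ΔWAPL*/*ΔSCC4* against control A, 0 of 6 passed in edgeR and in DESeq2, with 0 at an unadjusted p under 0.05, and 2 passed in *ΔSCC4* with the replicate block, where 46.0% of all genes did. Without control A replicate 1, 1 passed in *ΔWAPL*/*ΔSCC4*, where 12.2% of all genes did. Of the 8 negative regulators, the SOCS and PIAS proteins among them, 0 passed over both clones in edgeR or DESeq2 and 1 had an unadjusted p under 0.05. In *ΔSCC4* 0 of 7 passed in edgeR and DESeq2, with 0 at an unadjusted p under 0.05. There 4 passed with the replicate block (46.0% of all genes) and 2 without control A replicate 1 (18.3%).

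Of 36 genes that interferon induces, 28 were tested over both clones, and 5 rose and 3 fell, 8 of 28 against 17.7% of all genes. The list's median log2 fold change was -0.05, against 0.00479 over all genes. *IFITM1* and *IFITM2*, membrane proteins that block virus entry, fell by 1.93 ± 0.192 and 1.05 ± 0.203 (edgeR adjusted p = 4.37e-06 and 0.00188), whereas *IFIT1*, an RNA-binding antiviral protein, and *IFI6* rose by 0.58 ± 0.0901 and 0.45 ± 0.09996 (edgeR adjusted p = 0.000301 and 0.00532). *OAS3*, a sensor of double-stranded RNA, rose by 0.31 ± 0.0848 (edgeR adjusted p = 0.0211, from 0.00393 to 0.0789 over the alternatives), a call lost with the replicate block and without control B replicate 2, clone 1.14 replicate 1 or clone 1.14 replicate 3. The count of 8 became 5 without clone 1.14 replicate 1 (14.5% of all genes) or without clone 1.14 replicate 3 (14.3%).

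*IFITM1* was lower in every knockout genotype, at 12.2 ± 0.668 CPM in control A, 4.86 ± 0.322 in clone 3.3, 4.35 ± 0.501 in *ΔSCC4*, 7.37 ± 1.77 in *ΔWAPL*/*ΔSCC4*, 13.9 ± 0.798 in control B and 2.28 ± 0.291 in clone 1.14. In *ΔWAPL*/*ΔSCC4* its call was lost without control A replicate 2 or *ΔWAPL*/*ΔSCC4* replicate 2 or 3 (edgeR adjusted p from 0.00147 to 0.111 over the alternatives). *PSMB8*, an immunoproteasome subunit, went in different directions. It was at 13.8 ± 1.98 CPM in control A, 34.1 ± 4.80 in clone 3.3, 48.9 ± 3.28 in *ΔWAPL*/*ΔSCC4* and 4.56 ± 0.734 in *ΔSCC4*, and at 8.17 ± 1.76 in control B and 2.28 ± 0.181 in clone 1.14.

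In single genotypes the interferon-induced genes called were 3 of 26 in clone 3.3 (8.07% of all genes), with 2 higher, and 12 of 27 in clone 1.14 (20.1%), with 3 higher. They were 2 of 25 in *ΔSCC4* (9.49%), both lower, and 5 of 28 in *ΔWAPL*/*ΔSCC4* (7.95%), with 3 higher. The 12 became 7 without control B replicate 1 (12% of all genes) or clone 1.14 replicate 1 (11.1%) and 6 without clone 1.14 replicate 3 (11.5%). The 2 in *ΔSCC4* became 11 with the replicate block, where 46.0% of all genes were called, and 6 without control A replicate 1 (18.3%). The 5 in *ΔWAPL*/*ΔSCC4* became 2 without control A replicate 2 (4.99%) or *ΔWAPL*/*ΔSCC4* replicate 3 (6.06%). They became 3 without *ΔWAPL*/*ΔSCC4* replicate 1 (4.62%).

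**Figure D4:**
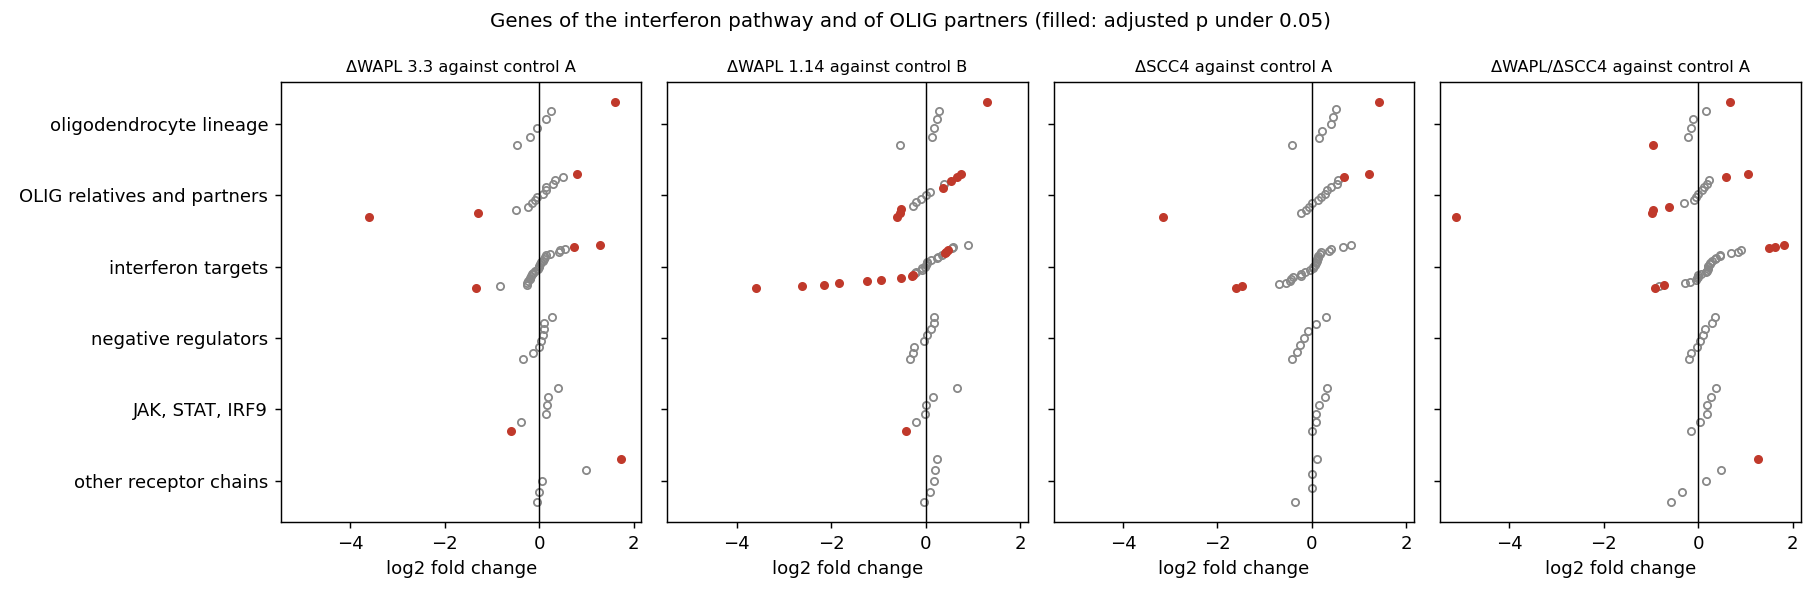
Log2 fold change (horizontal axis) of each tested gene of 6 lists (vertical axis) in 4 knockouts against the controls of their set, with genes past the threshold filled. Among the JAK and STAT genes *STAT2* is filled, below 0, in clones 3.3 and 1.14, no negative regulator is filled, and the filled interferon targets lie on both sides of 0 except in *ΔSCC4*, where both are below it.

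Among 20 relatives and partners of the OLIG proteins, *OLIG3*, the third gene of the family, on another chromosome, had few reads. It had 2.28 ± 0.230 CPM in control A, 0.179 ± 0.0991 in clone 3.3, 0.248 ± 0.147 in *ΔSCC4*, 0.0584 ± 0.00270 in *ΔWAPL*/*ΔSCC4*, 0.545 ± 0.0743 in control B and 0.0981 ± 0.0724 in clone 1.14, from 1 to 6 reads in the knockouts and 7 to 39 in the controls. It passed the filter in the set A comparisons through control A and did not pass it in clone 1.14, so its test is not given. It is still one of the genes counted below as called over both clones, in clone 3.3, in *ΔSCC4* and in *ΔWAPL*/*ΔSCC4*. *NEUROG2*, a neurogenic factor that acts with OLIG2 in motor neuron progenitors, fell over both clones by 0.94 ± 0.131 (edgeR adjusted p = 0.000107) and was 24.6 ± 0.530 CPM in *ΔSCC4* against 19.7 ± 2.92 in control A. Over both clones 4 of the 14 tested passed, with 2 higher, against 17.7% of all genes. In clone 3.3 it was 3 of 14 with 1 higher (8.07% of all genes, 2 to 4 over the alternatives). In clone 1.14 it was 7 of 13 with 4 higher (20.1%, 2 to 9 over the alternatives). In *ΔWAPL*/*ΔSCC4* against control A it was 6 of 14 with 2 higher (7.95%, 4 to 6 over the alternatives). *NEUROG2* was among those called in each of these 3. In *ΔSCC4* 3 of 14 passed (9.49% of all genes), 9 with the replicate block (46.0%), 6 without control A replicate 1 (18.3%) and 5 without control A replicate 3 (8.36%).

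Of 10 genes of the oligodendrocyte lineage, 6 were tested over both clones and 2 passed, both higher, against 17.7% of all genes. *PDGFRA*, the growth factor receptor of oligodendrocyte precursors and of many mesenchymal cells, rose by 1.47 ± 0.118 (edgeR adjusted p = 4.87e-07). It was at 12.4 ± 2.89 CPM in control A, 38.3 ± 3.95 in clone 3.3, 33.1 ± 7.79 in *ΔSCC4*, 13.8 ± 1.34 in *ΔWAPL*/*ΔSCC4*, 21.3 ± 2.93 in control B and 53.3 ± 4.01 in clone 1.14, so the single knockouts were above their controls and the double knockout was not. *CNP*, a myelin enzyme, was higher over both clones by 0.29 ± 0.0876 (edgeR adjusted p = 0.0351, from 0.0140 to 0.0895), a call lost with the replicate block and without control A replicate 2 or 3, clone 3.3 replicate 2 or 3, control B replicate 1 or 3, or clone 1.14 replicate 1 or 2. *MYRF*, a regulator of myelin genes, was lower in *ΔWAPL*/*ΔSCC4* by 0.96 ± 0.144 (edgeR adjusted p = 0.00177), and *MBP*, a structural protein of myelin, was higher by 0.67 ± 0.144 (edgeR adjusted p = 0.0158, from 0.000763 to 0.0765), a call lost without *ΔWAPL*/*ΔSCC4* replicate 1 or 2. These were 2 of 6 tested, against 7.95% of all genes. Of the 4 motor neuron genes 2 were tested, and *ISL1* rose over both clones by 0.53 ± 0.125 (edgeR adjusted p = 0.00796). The value was 0.78 ± 0.138 in clone 1.14 (edgeR adjusted p = 0.00771) and 0.25 ± 0.180 in clone 3.3 (adjusted p = 0.562), and the difference between the clones did not pass the threshold (edgeR adjusted p = 0.343).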

How the data were processed

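Strand-specific libraries of polyadenylated RNA were made from 18 HAP1 samples. The authors aligned the reads (TopHat2 2.0.9 on hg19 in the submitters' processing notes) and deposited raw counts per gene from HTSeq, not normalized. The annotation release is not given in the sources used here. Depth was 10007646 to 20711127 reads on genes per sample. Rows that name no gene stayed out of library sizes; reads on no feature were 4.04 to 5.22%, ambiguous reads 1.47 to 1.73% and reads not uniquely placed 14.3 to 16.1%, relative to all counted rows.

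Counts were tested with the quasi-likelihood test of edgeR 4.0.16 (R 4.3.3), with TMM normalization, filterByExpr and Benjamini-Hochberg adjustment over all genes at a threshold of 0.05. WAPL loss over both clones had the set as a covariate, and the difference between the clones was an interaction. Standard errors were computed from the F statistic (size of the log2 fold change divided by its root); at low counts they can be underestimates. Log2 CPM has a prior count of 2. Positions and symbols came from GRCh37 with GENCODE 44, which named 96.6% of the gene identifiers. As alternatives, DESeq2 1.42.0 and its size factors were used, the filter was dropped or set to 10 counts in all samples, the 18 samples were fitted together, the replicate number entered as a block, and samples were left out in turn. The fits were also run on simulated data, with a single dispersion for all genes and changes only in well-counted genes. That run says nothing about changes in genes with few reads, such as *EVA1C*.

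The members and lists were chosen with earlier results of these data known. Named beyond the 7 genes are neighbours past the threshold (at most 10 per comparison), at most 5 genes per list and comparison with the smallest adjusted p, the 5 genes most like each OLIG gene (average log2 CPM of 1 or more), and the targeted genes. *GART*, *NEUROG2* in *ΔSCC4* and the neighbours called under the replicate block were named after their values were seen.

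The replicate numbers come from the sample titles. Same-numbered samples of *ΔSCC4* and control A deviated together (r = 0.68, 0.12 and 0.62 across genes), so the blocked fit is given beside those results; in the other comparisons at least 1 pair was at or under 0.05.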

Additional observations from a re-analysis of the deposited data

Results flagged for a closer look

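*TMEM50B* had a sample far from the others among the 6 controls. Control A replicate 1, at 17.4 CPM, stood apart on the log2 scale by a gap of 0.841 of the whole range, above Dixon's 95% critical value for 6 samples. The other 6 genes were under it. Chance flags about 1 in 20 groups, and 7 were checked. *IFNAR1* was also lowest in that sample among the controls, at 34.4 CPM.

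In the interaction test, 7 genes of the pathway lists responded to WAPL loss unequally in clones 3.3 and 1.14 (edgeR, adjusted p under 0.05). The effect in clone 3.3 minus that in clone 1.14, on the log2 scale, was 3.14 for *PSMB8*, which rose in clone 3.3 and fell in clone 1.14 (edgeR adjusted p = 4.43e-06). It was 4.16 for *OAS2* (edgeR adjusted p = 1.4e-05), 1.29 for *IFITM1* (adjusted p = 0.000685), 1.89 for *OAS1* (adjusted p = 0.0326) and 1.59 for *IL20RA* (adjusted p = 0.0454). Among the OLIG partners it was -0.89 for *PAX6* (edgeR adjusted p = 0.00735) and 1.04 for *ID1* (adjusted p = 0.0198). The adjusted p of *PSMB8*, *OAS2* and *IFITM1* stayed under 0.05 in all alternatives run, and that of *PAX6* in all but the replicate block. *ID1* lost the threshold with the block and without control A replicate 2, clone 3.3 replicate 3, control B replicate 1, or clone 1.14 replicate 1 or 2 (adjusted p from 0.00161 to 0.103 in edgeR and DESeq2). *OAS1* kept it in 6 of 17 alternatives and *IL20RA* in 5 of 18. *OAS1* had 4 to 27 reads in a sample and *IL20RA* 7 to 64. Each clone was compared with another control set, so clone and set cannot be told apart. What moves these differences was not tested.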

How the results depend on the processing

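Differences of *OLIG1* and *OLIG2* against the controls kept their direction under every alternative that gave a value. The number of other genes of the region past the threshold was less stable. Over both clones it was 1, and 2 in one fit over all 18 samples, where 21.2% of all genes were called. In clone 3.3 it went from 1 to 0 with DESeq2 (6.17% of all genes), to 0 without a filter (7.57%) and to 0 with the replicate block (6.14%). It went to 2 there in the fit over all 18 samples (13.5%). In clone 1.14 it went from 1 to 0 with DESeq2 (13%) and to 3 with the replicate block (24%). In *ΔSCC4* it went from 1 to 0 with DESeq2 (7.67%), to 6 in the fit over all 18 samples (19.7%) and to 11 with the replicate block (46.0%). Leaving out 1 sample gave 1 to 2 over both clones, 0 to 0 in clone 3.3, 0 to 5 in clone 1.14, 0 to 4 in *ΔSCC4*, 0 to 1 in *ΔWAPL*/*ΔSCC4*, and 1 to 2 and 1 to 8 in *ΔWAPL*/*ΔSCC4* against clone 3.3 and against *ΔSCC4*. The share of all genes called moved over the same fits as well. It went from 11.1 to 37.9% in clone 1.14, from 5.25 to 18.3% in *ΔSCC4* and from 16.3 to 39.5% in *ΔWAPL*/*ΔSCC4* against *ΔSCC4*. The cause was not tested, except that fewer samples enter when 1 is left out. No result changed sign past the threshold. Over all genes tested, the 1186 called in *ΔSCC4* became 5754 with the replicate block and 2556 in the fit over all 18 samples, where the 1008 in clone 3.3 became 1753. Leaving out 1 sample gave 662 (without control A replicate 2) to 2317 (without control A replicate 1) in *ΔSCC4*, 1415 (without clone 1.14 replicate 1) to 4820 (without control B replicate 3) for the 2536 in clone 1.14, 586 (without *ΔWAPL*/*ΔSCC4* replicate 1) to 1552 (without control A replicate 1) for the 1001 in *ΔWAPL*/*ΔSCC4*, 2080 (without *ΔSCC4* replicate 2) to 5020 (without *ΔSCC4* replicate 3) for the 3447 against *ΔSCC4*, and 861 (without clone 3.3 replicate 2) to 1805 for the 1330 against clone 3.3. It gave 0 (without control A replicate 2) to 107 for the 80 between the controls and 218 (without clone 1.14 replicate 1) to 372 for the 339 that differed between the clones. Between the controls 80 became 142 with DESeq2, 127 without a filter, 408 over all 18 samples and 162 with the block. For the difference between the clones 339 became 211 with at least 10 counts and 173 with the block. Interferon-induced genes called over both clones went from 8 to 5 with at least 10 counts (15.2% of all genes) and to 4 with the block (12%). In *ΔSCC4* they went from 2 to 5 over all 18 samples (19.7%). *OLIG1* has 2 to 23 reads in the knockouts, so its levels there are set by few reads. With at least 10 counts in every sample *OLIG1* dropped out where *ΔSCC4* or clone 1.14 entered.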
